A study of Mus musculus with 14 samples.

Results

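The 9 genes described here encode the subunits of AMP-activated protein kinase (AMPK) and the core of the kinase that switches it on. They are Prkaa1 and Prkaa2 (catalytic alpha subunits), Prkab1 and Prkab2 (beta subunits), Prkag1, Prkag2 and Prkag3 (gamma subunits), Stk11, which encodes the upstream kinase LKB1, and Cab39, which encodes MO25alpha, a scaffold of the LKB1 complex. They were taken by symbol, whatever their values, from the 21853 genes of the expression table. RNA sequencing of rRNA-depleted total RNA, with libraries that kept the strand, was carried out on whole ovaries and uteri of C57BL/6J females that were 28 weeks old. The old control (OC) mice received saline by vein, and the old treatment (OT) mice received conditioned medium of human amniotic membrane-derived mesenchymal stem cells (AMSC-CM), mixed from several donors, in 6 tail vein injections at intervals of 4 days and a dose of 1 µL per g. Every mouse of both groups had first been given 10 IU of pregnant mare serum gonadotropin and, 48 h later, 10 IU of human chorionic gonadotropin. There were 3 OC and 4 OT mice, each with 1 ovary and 1 uterus library under the same mouse label, which gave 14 libraries in 4 groups.

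AMPK is a heterotrimer of 1 alpha, 1 beta and 1 gamma subunit that senses the energy state of the cell. The gamma subunit binds adenine nucleotides, the beta subunit holds the trimer together and binds glycogen, and the alpha subunit carries the kinase domain, which LKB1 phosphorylates in its activation loop. Active AMPK restrains lipid synthesis and favours fatty acid oxidation and glucose uptake, and in the ovary it is known for its part in steroid production and oocyte maturation. Each subunit class has several isoforms from separate genes, and the alpha 2 and gamma 3 isoforms are known for their high levels in skeletal muscle. These are background facts on the protein. Here only transcripts were measured, and neither phosphorylation nor kinase activity was.

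The genes lie on 6 chromosomes of GRCm38 (mm10), with 2 each on chromosomes 1, 5 and 15. Prkaa1 spans positions 5143861 to 5181899 of chromosome 15 on the plus strand, and Prkag1 positions 98812797 to 98831521 of the same chromosome on the minus strand. Prkaa2 spans positions 105029874 to 105109890 of chromosome 4, minus strand. Prkab1 (116013586 to 116024508) and Prkag2 (24862744 to 25100642) both lie on the minus strand of chromosome 5. Prkab2 spans positions 97658193 to 97673812 of chromosome 3, plus strand, and Stk11 positions 80115803 to 80130682 of chromosome 10, plus strand. On chromosome 1, Prkag3 (74738922 to 74749221) is on the minus strand and Cab39 (85793441 to 85851576) on the plus strand. The annotation gives Prkag2 as a locus that overlaps another gene.

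The promoters of 3 subunit genes are shown, because Prkaa2 and Prkag2 had the largest tissue differences among the 8 members tested and Prkaa1 is the isoform that Prkaa2 is set against. Each is the 250 bases upstream of a RefSeq start site (GRCm38.p6), written 5′ to 3′ on the strand of the gene, and capitals mark each GC box, the sequence GGGCGG on either strand, with overlapping matches run together. The Prkaa1 window is chr15:5143611-5143860 (plus strand), the Prkaa2 window chr4:105109899-105110148 (minus strand), and the Prkag2 window, the most upstream of 3 for that gene, chr5:25100643-25100892 (minus strand).
Prkaa1: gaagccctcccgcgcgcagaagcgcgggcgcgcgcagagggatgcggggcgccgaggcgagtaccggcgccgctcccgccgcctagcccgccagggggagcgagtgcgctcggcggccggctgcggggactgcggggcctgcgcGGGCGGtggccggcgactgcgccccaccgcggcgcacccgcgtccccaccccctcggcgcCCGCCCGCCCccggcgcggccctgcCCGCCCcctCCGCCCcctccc
Prkaa2: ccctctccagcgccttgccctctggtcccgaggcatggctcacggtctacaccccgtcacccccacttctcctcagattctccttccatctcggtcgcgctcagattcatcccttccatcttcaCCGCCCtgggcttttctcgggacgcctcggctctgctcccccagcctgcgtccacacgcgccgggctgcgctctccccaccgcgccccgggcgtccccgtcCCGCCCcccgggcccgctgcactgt
Prkag2: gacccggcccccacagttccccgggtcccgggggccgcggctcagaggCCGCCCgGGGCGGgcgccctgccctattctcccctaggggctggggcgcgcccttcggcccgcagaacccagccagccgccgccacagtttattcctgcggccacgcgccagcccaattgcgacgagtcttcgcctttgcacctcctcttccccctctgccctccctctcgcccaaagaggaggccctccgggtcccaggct
The Prkaa1 window held 85.2% G and C, 45 CG dinucleotides and 5 GC boxes. The Prkaa2 window held 70.0% G and C, 24 CG and 2 GC boxes, and the Prkag2 window shown 73.2%, 23 CG and 2 GC boxes. Of the Prkag2 windows not shown, 1 held 48.4%, 4 CG and 0 GC boxes, and 1 held 77.2%, 34 CG and 1 GC box. Which start site is used in these tissues was not tested. Over the 32851 RefSeq windows of this length the medians were 52.4% G and C and 6 CG. All 9 members matched a window, 11 windows in all, and 7 of the 11 held a GC box, against 32.7% of all windows. A TATA box (TATAAA) was in 0 of the 11, against 12.4%. The E-box CANNTG was in 7 of the 11 (66.2% of all windows), a CCAAT box (CCAAT) in 4 (33.8%), and the CArG box, a motif of smooth muscle promoters, in 0 (1.47%), each searched on both strands. A match is a run of letters and not a shown binding site.

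The libraries carried their labelled tissue with a few features that bear on the comparisons. Values were FPKM, fragments scaled to the length of the gene and the size of the library and estimated per gene, so sequencing depth cannot be read from them. The 10 granulosa, theca and luteal markers summed to 3548 to 4660 FPKM in the ovaries and 8.72 to 24.3 FPKM in the uteri. The 4 uterus markers summed to 291 to 306 FPKM in the OC uteri and 181 to 246 FPKM in the OT uteri. Among the ovaries those 4 markers ranged from 2.14 to 70.2 FPKM, led by Hoxa10, and were highest in the OC2 and OT3 ovaries. The 8 adipocyte markers summed to 197 to 308 FPKM in the OC ovaries, 241 to 1786 FPKM in the OT ovaries, 68.2 to 250 FPKM in the OC uteri and 1211 to 11298 FPKM in the OT uteri. The OT1 uterus held the highest adipocyte sum and also the highest total of all genes, 577494 FPKM, whereas the other groups stayed between 374816 and 445048 FPKM. The 8 stratified epithelium markers summed to 2.93 to 13.9 FPKM in the OC uteri and 45.1 to 802 FPKM in the OT uteri. In bulk tissue, fewer cells of a type and less RNA per cell cannot be told apart.

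All members but Prkag3 were expressed in every library. Since FPKM is per length, levels can be set side by side between genes. In the ovary, Cab39 was the highest at 53.2 ± 2.03 FPKM (SD, n = 7), followed by Stk11 at 37.7 ± 1.66, Prkag1 at 32.6 ± 3.50, Prkaa1 at 19.9 ± 0.560, Prkag2 at 18.0 ± 3.23, Prkab1 at 14.9 ± 1.69, Prkab2 at 13.1 ± 0.844 and Prkaa2 at 3.68 ± 0.374 FPKM. Cab39 lay above Stk11, Prkag1 above Prkaa1 and Prkab2 above Prkaa2 with no overlap between libraries, while the other neighbours in this order overlapped. In the uterus, the order was Cab39 at 46.3 ± 3.90 FPKM (SD, n = 7), Stk11 at 36.7 ± 2.24, Prkag2 at 35.8 ± 6.57, Prkag1 at 31.6 ± 6.38, Prkaa1 at 24.4 ± 2.74, Prkab1 at 17.6 ± 3.24, Prkab2 at 16.8 ± 2.51 and Prkaa2 at 6.55 ± 1.11 FPKM. Only Cab39 over Stk11, and Prkab2 over Prkaa2, were free of overlap there. Prkag2 was thus the fifth member of the ovary and the third of the uterus. Among the genes tested, Cab39 stood at percentile 91.6 for ovaries and 88.7 for uteri, and Prkaa2 at 22.2 and 32.9.

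Prkag3, the gamma isoform known from skeletal muscle, was close to the bottom of the scale. It was listed at 0, 0.0956 and 0 FPKM in the OC ovaries and at 0.0902, 0.183, 0.189 and 0.144 FPKM in the OT ovaries. In the uteri it was at 0.327, 0.155 and 0.0538 FPKM (OC) and at 0.0907, 0.151, 0.323 and 0.177 FPKM (OT). The groups overlapped, and its mean was below the 0.5 FPKM needed for a test, so no change is given for it.

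**Figure D1:**
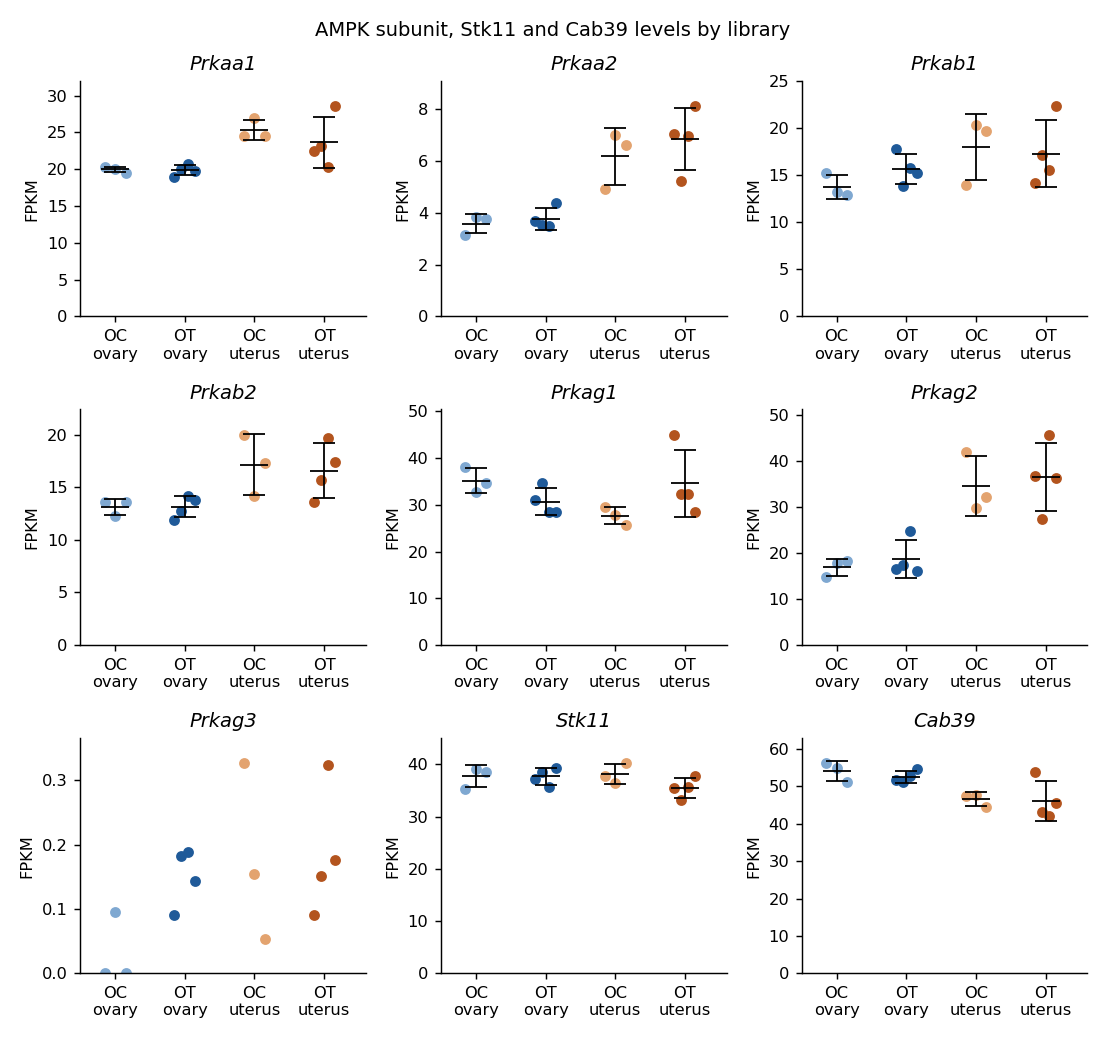
FPKM (y axis, from 0, with its own scale in each panel) of the 9 genes in each library, by group (x axis). Points are libraries (n = 3 OC, n = 4 OT), long bars are means and error bars are SD, except for Prkag3, where only the points are drawn. Prkaa2 and Prkag2 were higher in every uterus than in any ovary, whereas OC and OT overlapped for all 9 genes in both tissues.

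The first question was whether the ovary and the uterus use different isoforms. In the alpha class, both genes were higher in the uterus. Prkaa2 (alpha 2) was at 3.14, 3.83 and 3.78 FPKM in the OC ovaries and at 3.66, 3.52, 3.48 and 4.35 FPKM in the OT ovaries. In the uteri it was at 4.91, 6.98 and 6.63 FPKM (OC) and at 7.02, 5.24, 6.97 and 8.10 FPKM (OT). Every uterus lay above every ovary, and within a mouse the uterus was 1.49 to 2.00 times the ovary. On the log2(FPKM + 0.1) scale, used for all fold changes here, the difference was 0.80 ± 0.12 (SE), a 1.74-fold higher level (95% interval 1.44 to 2.09; adjusted p = 1.18e-04, from limma with Benjamini-Hochberg adjustment over all genes tested). Prkaa1 (alpha 1), the more abundant catalytic isoform, was at 20.3, 20.1 and 19.5 FPKM in the OC ovaries and 19.0, 20.1, 20.7 and 19.8 FPKM in the OT ovaries. It was at 24.5, 26.9 and 24.5 FPKM in the OC uteri and 22.5, 23.2, 20.4 and 28.6 FPKM in the OT uteri. Its tissues overlapped in the OT3 mouse, whose uterus was the lowest, and the uterus was higher in 6 of 7 mice. The log2 fold change was 0.29 ± 0.07, 1.22-fold (95% interval 1.09 to 1.36; adjusted p = 0.00501, limma).

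In the beta class, Prkab2 was higher in the uterus and Prkab1 did not pass the test. Prkab2 was at 13.6, 12.2 and 13.5 FPKM in the OC ovaries and 11.9, 12.7, 14.1 and 13.8 FPKM in the OT ovaries. It was at 20.0, 14.2 and 17.3 FPKM in the OC uteri and 13.6, 15.7, 19.7 and 17.4 FPKM in the OT uteri. The uterus was higher in 7 of 7 mice although the tissues overlapped, and the log2 fold change was 0.35 ± 0.10, 1.27-fold (95% interval 1.10 to 1.48; adjusted p = 0.00968, limma). Prkab1 was at 12.9 to 17.8 FPKM in the ovaries and 14.02 to 22.3 FPKM in the uteri, higher in the uterus of 4 of 7 mice. Its log2 fold change was 0.25 ± 0.12 (95% interval -0.01 to 0.50 on the log2 scale; adjusted p = 0.0948, limma). Prkab1 did pass without the OC1 mouse (adjusted p = 0.0260) and without the OT1 mouse (adjusted p = 0.0307), so its call rests on which mice are counted.

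In the gamma class, the 2 expressed isoforms parted. Prkag2 was at 14.8, 17.8 and 18.2 FPKM in the OC ovaries and at 16.6, 17.4, 24.8 and 16.2 FPKM in the OT ovaries, where OT3 stood above the rest. In the uteri it was at 42.0, 29.7 and 32.2 FPKM (OC) and at 36.8, 27.5, 45.8 and 36.3 FPKM (OT). Every uterus lay above every ovary, and within a mouse the uterus was 1.58 to 2.83 times the ovary. The log2 fold change was 0.99 ± 0.13, 1.98-fold (95% interval 1.63 to 2.42; adjusted p = 3.60e-05, limma), the largest among the members. Prkag1 was at 38.0, 32.7 and 34.8 FPKM in the OC ovaries, 31.1, 34.6, 28.6 and 28.4 FPKM in the OT ovaries, 29.5, 27.8 and 25.8 FPKM in the OC uteri and 45.0, 32.4, 32.4 and 28.5 FPKM in the OT uteri. Its tissues overlapped, it was higher in the uterus of 3 of 7 mice, and its log2 fold change of -0.09 ± 0.10 did not pass (95% interval -0.30 to 0.11; adjusted p = 0.434, limma).

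For the upstream kinase, Stk11 stayed close to level across the organs and Cab39 was lower in the uterus. Stk11 was at 35.4, 39.2 and 38.6 FPKM in the OC ovaries, 37.3, 38.5, 35.7 and 39.4 FPKM in the OT ovaries, 37.8, 36.5 and 40.2 FPKM in the OC uteri and 35.4, 33.2, 35.8 and 37.8 FPKM in the OT uteri. The 95% interval of its uterus to ovary ratio was 0.899 to 1.06 (log2 fold change -0.03 ± 0.06; adjusted p = 0.626, limma), which bounds any tissue difference of the mean to about that range. Cab39 was at 56.2, 54.8 and 51.1 FPKM in the OC ovaries, 51.7, 51.1, 52.8 and 54.7 FPKM in the OT ovaries, 47.5, 47.7 and 44.5 FPKM in the OC uteri and 53.7, 43.0, 42.1 and 45.6 FPKM in the OT uteri. It was lower in the uterus of 6 of 7 mice, the exception being OT1. Its log2 fold change was -0.20 ± 0.06, 1.15-fold lower (adjusted p = 0.0153, limma), but it no longer passed without the OC1 mouse (adjusted p = 0.0594), without the OC2 mouse (adjusted p = 0.0520) or without the OC2 and OT3 ovaries (adjusted p = 0.0552).

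Of the 8 members tested, 4 were called higher in the uterus and 1 lower at an adjusted p under 0.05, where 26.1% and 26.8% of the 14557 genes tested were called higher and lower. The 5 calls are therefore close to the 52.9% of all genes called, and the count itself sets the members apart from no other genes. The levels of Prkaa2 and Prkag2 were free of overlap between the tissues, as were those of 11.5% of all genes on the higher side. The median log2 fold change was 0.27 over the 8 members and -0.00 over all genes. The calls of Prkaa1, Prkaa2, Prkab2 and Prkag2 held in all 12 alternative fits, including the 1 without the OC2 and OT3 ovaries. Markers of several cell types also differed between the tissues, in both directions. All 10 granulosa, theca and luteal markers were called lower in the uterus (median log2 fold change -6.39), as were all 6 oocyte markers (median -4.38). All 8 smooth muscle markers were called higher in the uterus, and they summed to 922 to 2832 FPKM in the ovaries and 7947 to 14812 FPKM in the uteri. Of the 10 skeletal muscle markers 6 were tested and 5 of these were called higher, led by Acta1 (14.5-fold) and Tnni2 (12.6-fold). The remaining marker tested, Mylpf, went the other way, at a log2 fold change of -0.997 (adjusted p = 0.0761, limma). The list summed to 7.58 to 28.3 FPKM in the ovaries and 90 to 186 FPKM in the uteri. Of its myosins, Myh4 was at 0 in all uteri, and Myh1 and Myh2 were at most 0.0316 and 0.0307 FPKM there. Stratified epithelium markers (6 of 8) and leukocyte markers (3 of 4 tested) were also called higher. Their part in the isoform differences was not tested.

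The share of each isoform in the summed FPKM of its class gives the same values as isoform use, with no test. Prkaa2 made up 13.4%, 16.0% and 16.2% of the alpha sum in the OC ovaries and 16.2%, 14.9%, 14.4% and 18.1% in the OT ovaries. In the uteri its share was 16.7%, 20.6% and 21.3% (OC) and 23.8%, 18.5%, 25.5% and 22.1% (OT). The share was higher in the uterus of 7 of 7 mice, 21.2% ± 2.99 against 15.6% ± 1.51 (SD, n = 7), with some overlap, and Prkaa1 remained the main alpha isoform in all 14 libraries. Prkag2 made up 28.1%, 35.2% and 34.4% of the gamma sum in the OC ovaries and 34.7%, 33.3%, 46.3% and 36.2% in the OT ovaries. In the uteri its share was 58.5%, 51.6% and 55.5% (OC) and 44.9%, 45.8%, 58.3% and 55.9% (OT). The leading gamma isoform was Prkag1 in all 7 ovaries and Prkag2 in 5 of 7 uteri, the OT1 and OT2 uteri being the exceptions. The mean share of Prkag2 was 52.9% ± 5.66 in the uterus and 35.5% ± 5.47 in the ovary, and its rise within the mouse was seen in 7 of 7.

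The beta class was divided almost evenly. Prkab2 held 47.0% ± 3.34 of the beta sum in the ovaries and 49.0% ± 6.32 in the uteri, and the share was higher in the uterus of 3 of 7 mice. The summed levels were higher in the uterus for each class, at 30.9 ± 3.30 against 23.6 ± 0.541 FPKM for alpha, 34.4 ± 3.71 against 28.01 ± 1.79 FPKM for beta and 67.6 ± 9.98 against 50.7 ± 3.26 FPKM for gamma (SD, n = 7). The alpha and gamma sums did not overlap between the tissues, and the beta sum was higher in 6 of 7 mice. The ratios between the classes overlapped between the tissues and varied more among the uteri. Gamma over alpha was 2.15 ± 0.143 for ovaries and 2.22 ± 0.482 for uteri, and alpha over beta was 0.846 ± 0.0600 and 0.902 ± 0.0961. Gamma over beta was 1.82 ± 0.184 for ovaries and 2.00 ± 0.488 for uteri.

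**Figure D2:**
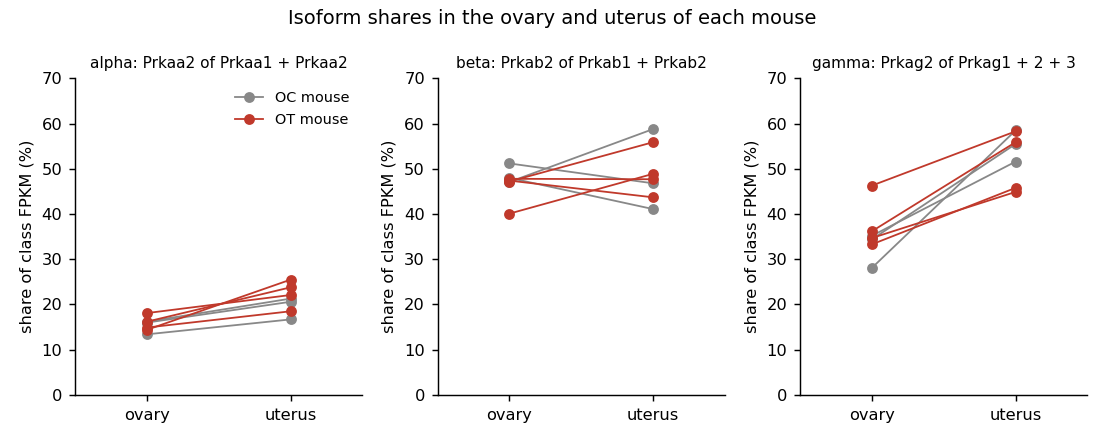
Share of Prkaa2, Prkab2 and Prkag2 in the summed FPKM of the alpha, beta and gamma class (y axis, percent) in the ovary and uterus (x axis), with a line for each mouse (grey OC, n = 3, and red OT, n = 4). The Prkaa2 and Prkag2 lines rise in all 7 mice, to means of 21.2% and 52.9% in the uterus, while the Prkab2 lines rise in 3 and fall in 4.

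The second question was whether AMSC-CM changed these genes. In the ovary, 0 of the 8 members tested passed an adjusted p under 0.05 (limma), as did 0% of the 14415 genes tested. By the cutoffs of the study, a log2 fold change of at least 1 in either direction with an unadjusted p of at most 0.05, 0 of 8 members passed, against 0.451% of all genes, and 0 of 8 had an unadjusted p under 0.05, against 4.51%. OC and OT overlapped for all 8, where 5.91% of all genes had groups free of overlap. Stk11 was at 37.7 ± 2.07 FPKM in OC (SD, n = 3) and 37.7 ± 1.61 FPKM in OT (SD, n = 4), with a 95% interval of the ratio of 0.901 to 1.11. For Prkaa1 the interval was 0.899 to 1.10, and for Cab39 0.885 to 1.07. Prkaa2, at 0.832 to 1.32, and Prkag2, at 0.855 to 1.40, were less tightly bounded. Prkag1 had the smallest p, with 35.2 ± 2.67 FPKM in OC and 30.7 ± 2.89 FPKM in OT. All 4 OT ovaries lay below the OC mean, and the log2 fold change was -0.20 ± 0.09 (unadjusted p = 0.0560, adjusted p = 0.997, limma). Prkab1 lay above the OC mean in all 4 OT ovaries, at a log2 fold change of 0.18 ± 0.10 (unadjusted p = 0.116, adjusted p = 0.997, limma). The median over the 8 members was 0.00, against -0.01 over all genes.

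In the uterus, again 0 of 8 members passed the adjusted p, as did 0% of the 14151 genes tested. The cutoffs of the study were passed by 0 of 8 members and 2.90% of all genes, and an unadjusted p under 0.05 by 0 of 8 members and 8.20% of all genes. OC and OT overlapped for all 8 here too, where 11.9% of all genes had groups free of overlap. Prkag1 was at 27.7 ± 1.86 FPKM in OC (SD, n = 3) and 34.6 ± 7.19 FPKM in OT (SD, n = 4). All 4 OT uteri were above the OC mean, but OT4 fell within the OC values, and the log2 fold change of 0.30 ± 0.17 did not pass (unadjusted p = 0.112, adjusted p = 0.625, limma). The highest of these uteri, OT1 at 45.0 FPKM, was the library with the highest adipocyte sum, and without it the change was a log2 fold change of 0.17. Stk11 was below the OC mean in all 4 OT uteri, at a log2 fold change of -0.10 ± 0.11 with a 95% interval of the ratio of 0.780 to 1.11. The intervals were wider than in the ovary, from 0.738 to 1.17 for Prkaa1, 0.797 to 1.53 for Prkaa2, 0.765 to 1.45 for Prkag2 and 0.806 to 1.21 for Cab39. Changes within these intervals remain compatible with the values of the 3 and 4 mice. The median over the members was -0.03, against 0.01 over all genes, although the adipocyte markers in the same libraries had a median log2 fold change of 3.85.

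**Figure D3:**
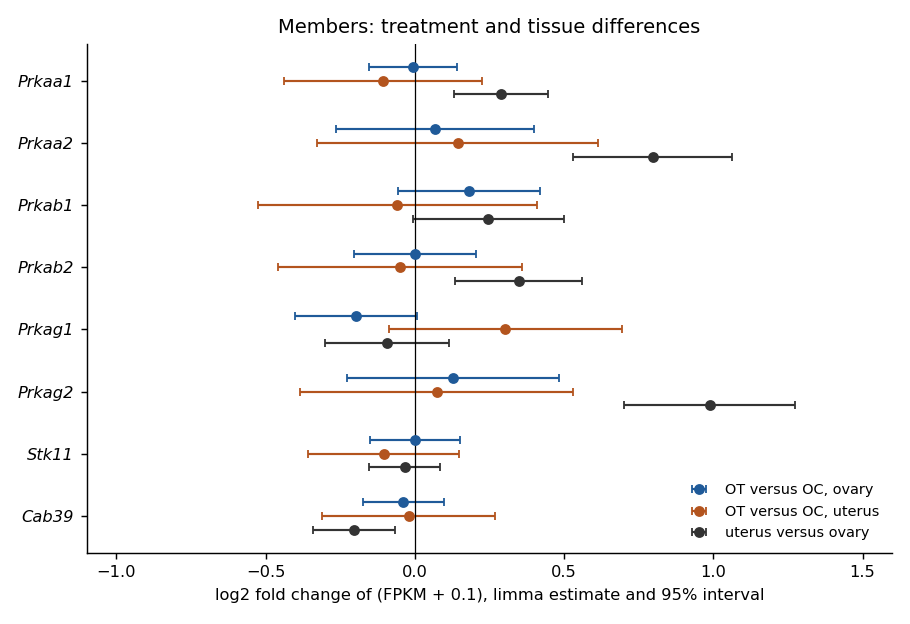
limma log2 fold change of (FPKM + 0.1) with 95% interval (x axis) of the 8 genes tested (y axis), for OT versus OC in ovaries and in uteri (n = 3 and 4), and for uterus versus ovary (n = 7 each). The treatment intervals all include 0, and the tissue intervals lie above 0 for Prkaa1, Prkaa2, Prkab2 and Prkag2 and below 0 for Cab39.

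A fit of all 14 libraries tested whether the response differed between the organs. Again 0 of 8 members passed an adjusted p under 0.05 (limma), as did 0% of the 14557 genes tested. Prkag1 alone had an unadjusted p under 0.05, where 5.12% of all genes did. Its log2 fold change was -0.20 for ovaries and 0.30 for uteri, a difference of 0.50 ± 0.19 on the log2 scale (95% interval 0.08 to 0.92; unadjusted p = 0.0221, adjusted p = 0.844, limma). That is 1 of 8 members, and it failed the correction. The difference stayed between 0.38 and 0.58 in all 12 alternative fits. For the other members the unadjusted p ranged from 0.322 for Prkab1 to 0.884 for Cab39. The share of Prkag2 in the gamma sum, in which Prkag1 is the other main term, was 32.6% ± 3.88 (OC) and 37.6% ± 5.92 (OT) for ovaries and 55.2% ± 3.46 (OC) and 51.2% ± 6.86 (OT) for uteri, and the groups overlapped in both organs. The share of Prkaa2 in the alpha sum was 15.2% ± 1.55 (OC) and 15.9% ± 1.63 (OT) in the ovary and 19.5% ± 2.44 (OC) and 22.5% ± 3.01 (OT) in the uterus.

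The other genes of the pathway were described by 5 lists. The shares to read their counts against are the 26.1% of all genes called higher in the uterus and the 26.8% called lower, and over the 5 lists 14 and 10 of 48 genes tested were. Of the 6 LKB1 partners and other kinases that activate AMPK, 1 was called higher and 1 lower in the uterus. Camkk2, the calcium-dependent kinase that activates AMPK apart from LKB1, was 1.89-fold lower in the uterus, at a log2 fold change of -0.92 ± 0.14 (adjusted p = 1.23e-04, limma), with 22.4 to 40.7 FPKM in the ovaries and 11.6 to 19.6 FPKM in the uteri, which did not overlap, as for 13.5% of all genes on the lower side. Cab39l, which encodes the MO25beta relative of Cab39, was 1.27-fold higher (adjusted p = 0.0187, limma), the opposite direction to Cab39. Of the 5 genes of the adiponectin branch, 3 were called higher and 0 lower. These were Cdh13, a cadherin that binds adiponectin (2.40-fold, adjusted p = 8.93e-07), Appl1, an adaptor of the adiponectin receptors (1.28-fold, adjusted p = 9.03e-04), and the receptor Adipor1 (1.09-fold, adjusted p = 0.0415). The median log2 fold changes of the lists were -0.11 and 0.35, against -0.00 over all genes.

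Among 6 modulators of AMPK, 3 were called higher in the uterus and 0 lower. They were Fnip1 and Fnip2, whose products bind folliculin and AMPK (log2 fold changes 0.51 and 0.64), and the sestrin Sesn1 (0.55). Of the 12 AMPK-related kinases that LKB1 also activates, 11 were tested, 2 were called higher and 6 lower. The microtubule affinity-regulating kinases Mark1, Mark3 and Mark4 were at log2 fold changes of -1.01, -0.29 and -0.66, and Nuak2 was at -0.96. Of 20 AMPK substrates, 5 were called higher and 3 lower. Gpam, a glycerol-3-phosphate acyltransferase, was 3.24-fold lower (adjusted p = 8.98e-07, limma). Tbc1d1 and Tbc1d4, which act in glucose transporter traffic, were 1.86-fold and 1.35-fold higher. The medians of these lists were 0.28, -0.25 and 0.34.

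For OT versus OC, 0 genes of these 5 lists passed an adjusted p under 0.05 in either organ (limma). An unadjusted p under 0.05 was found for 3 of 47 tested in ovaries, against 4.51% of all genes, and 5 of 48 in uteri, against 8.20%. The cutoffs of the study were passed by 1 of 47 (0.451% of all genes) and 3 of 48 (2.90%). The adiponectin gene Adipoq, an adipocyte hormone that acts upstream of AMPK, was at 21.1, 17.9 and 25.6 FPKM in the OC ovaries and 160, 130, 22.5 and 49.2 FPKM in the OT ovaries. Its log2 fold change there was 1.70 ± 0.60, 3.25-fold (unadjusted p = 0.0213, adjusted p = 0.997, limma). It missed the p cutoff when OC1, OC2 or OT2 was left out, with an unadjusted limma p of 0.0501, 0.0617 and 0.0550. In the uterus Adipoq was at 8.40, 26.8 and 28.6 FPKM in OC and 777, 117, 251 and 133 FPKM in OT, 12.6-fold higher (log2 fold change 3.65 ± 0.70; unadjusted p = 7.91e-04, adjusted p = 0.357, limma). Its groups overlapped in the ovary and did not in the uterus. The receptor Adipor1 and the adaptor Appl1 were at log2 fold changes of 0.05 and -0.05 in the uterus.

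The 2 substrates past the cutoffs in the uterus were lipases. Lipe (hormone-sensitive lipase) was at 14.9, 18.1 and 14.6 FPKM in the OC uteri and 256, 37.1, 62.9 and 35.2 FPKM in the OT uteri, a log2 fold change of 2.09 ± 0.63 (unadjusted p = 0.0106, adjusted p = 0.539, limma). Pnpla2 (adipose triglyceride lipase) was at 26.5, 36.3 and 39.4 FPKM in OC and 469, 65.8, 116 and 75.2 FPKM in OT, a log2 fold change of 1.93 ± 0.62 (unadjusted p = 0.0147, adjusted p = 0.550, limma). Both were highest in the OT1 uterus, and without it the log2 fold changes were 1.46 and 1.30, still past the cutoffs. In the ovary neither lipase passed the cutoffs. Lipe was at 0.66 ± 0.28 there (unadjusted p = 0.0431, adjusted p = 0.997, limma). Its OC and OT ovaries were free of overlap, as were those of 5.91% of all genes. Pnpla2 was at 0.51 ± 0.36 in the ovary (unadjusted p = 0.185, limma), and its groups overlapped. All 8 adipocyte markers passed the same cutoffs in the uterus and 4 of 8 in the ovary, and Adipoq is itself 1 of these markers. Their part in the changes of Adipoq, Lipe and Pnpla2 was not tested.

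The list medians for OT versus OC in the ovary were 0.04 for the LKB1 partners, 0.03 for the adiponectin branch, 0.01 for the modulators, 0.12 for the related kinases and 0.04 for the substrates, against -0.01 over all genes. In the uterus they were 0.21, 0.05, -0.16, -0.09 and 0.25, against 0.01. All 6 modulators were below 0 in the uterus, between -0.54 and -0.07, with the smallest unadjusted p at Sesn3 (0.0687). Cab39l was the LKB1 partner with the smallest p there, at a log2 fold change of 0.42 ± 0.16 (unadjusted p = 0.0333, adjusted p = 0.579, limma), and Sik2, a salt-inducible kinase, that of the related kinases, at 0.98 ± 0.40 (unadjusted p = 0.0412, adjusted p = 0.596, limma). In the ovary the smallest p of each list belonged to Camkk1 (0.0813), Fnip1 (0.0639), Sik1 (0.104) and the substrate Acaca (0.0112). Acaca encodes acetyl-CoA carboxylase, the enzyme of fatty acid synthesis that AMPK inhibits, and its log2 fold change of 0.41 ± 0.13 did not pass the correction (adjusted p = 0.997, limma).

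**Figure D4:**
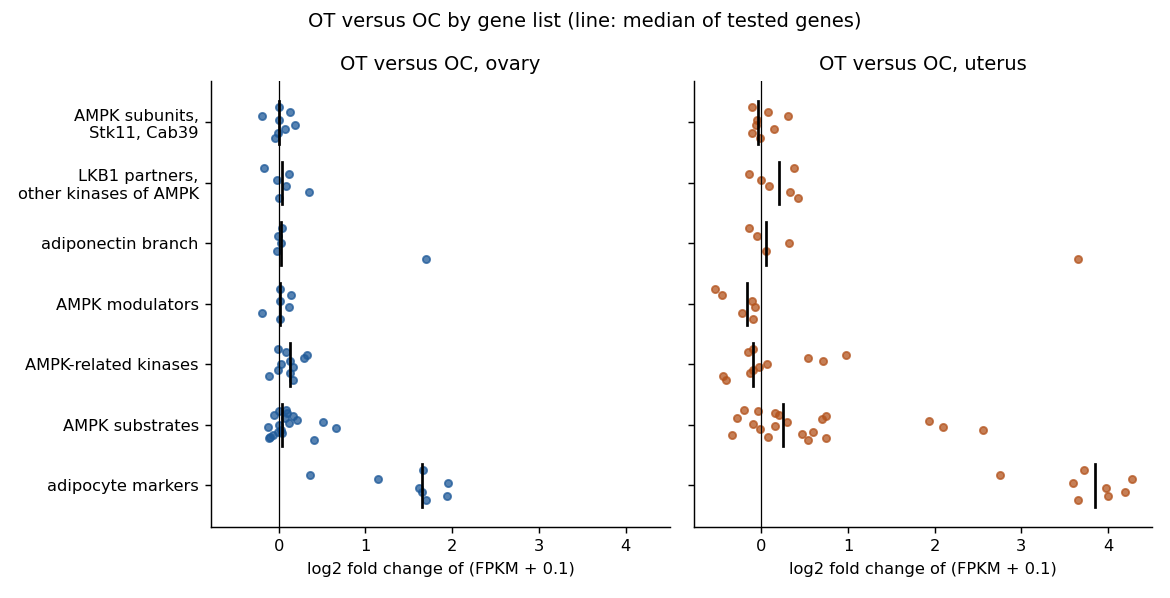
limma log2 fold change of (FPKM + 0.1) for OT versus OC (x axis) of each gene tested in 7 lists (y axis), in the ovary on the left and the uterus on the right (n = 3 OC and n = 4 OT). Points are genes and vertical bars are list medians, which were 0.00 and -0.03 for the AMPK subunits with Stk11 and Cab39 and 1.66 and 3.85 for the adipocyte markers.

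The genes whose pattern was most like that of a member were found by the Pearson r of log2(FPKM + 0.1) over the 14 libraries, among the 13652 genes whose mean reached 0.5 FPKM in both tissues. For Prkaa2 these were Mgat4a (r = 0.956), Ndrg1 (r = 0.956) and Tgm2 (r = 0.951), and for Prkaa1 they were Heca (r = 0.908), Rftn2 (r = 0.899) and Pls1 (r = 0.898). For Stk11, which varied little, the closest were Sms (r = 0.768), Gpatch4 (r = 0.762) and Gcc1 (r = 0.750). The libraries share tissue and mouse, so these values also carry the difference between ovary and uterus.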

How the data were processed

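The authors trimmed the reads with Skewer, mapped them to mm10 with STAR 2.5 and quantified them with Cufflinks 2.2.1, and the deposited values are FPKM per gene, scaled by the authors to gene length and library size, with no count. The reads were not used here and the depth is unknown. All 21853 identifiers matched GENCODE mouse release M21, the source of symbols and positions (48 genes share a symbol). FPKM were used as deposited. Genes whose mean over the libraries fitted reached 0.5 FPKM were tested, two-sided, on log2(FPKM + 0.1) by limma's moderated test with an intensity trend (limma 3.58.1, R 4.3.3). This is a scale that understates the change of low genes, and p-values were adjusted by Benjamini-Hochberg over all genes tested. A call is an adjusted p under 0.05. Cuffdiff, the test of the study, needs reads, so its cutoffs were applied to the limma values. Each organ was fitted alone for OT versus OC. Uterus versus ovary and the difference in response came from a fit of all 14 libraries by group. The replicates are separate mice, and each ovary and uterus with the same label was taken as the same mouse. In a check of this pairing, deviations from the group means correlated at r = 0.090 to 0.265 over 13653 genes between the ovary and uterus of a mouse. Among the uteri of its treatment group, the OT2 ovary was closest to OT1 and the OT3 ovary to OT4. The other ovaries were closest to the uterus of their own label. The OC1 and OT1 ovaries, from different mice, correlated at r = 0.338. The check therefore does not settle the pairing, which rests on the labels.

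All 9 members were named. From each other list the genes called in a comparison were named, at most 4 with the smallest p, and where none was called the 1 with the smallest p. For 1 list gene the result is not reported here. The members, lists and tests were chosen with earlier results of these data known. The alternatives were a pseudocount of 1, no filter on low values, median-of-ratios scaling, a replicate block, all 14 libraries in 1 fit, and leaving out mice. The fits were tested on simulated data. Tables and figures were made with Python 3.11.15, numpy 2.4.6, pandas 2.3.3, scipy 1.17.1 and matplotlib 3.10.9.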

Additional observations from a re-analysis of the deposited data

Results flagged for a closer look

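In groups of 4 libraries, 86 gene or share values were searched for a library far from the others, and 9 were found. For independent and normally distributed values, chance gives about 1 in 20, or 4.3. Shares of a class depend on each other and the genes come from the same libraries, so these counts cannot show an excess. Among the AMPK subunits, Prkag2 was at 24.8 FPKM in the OT3 ovary, against 16.2 to 17.4 FPKM in the other OT ovaries. The OT3 ovary was also 1 of the 2 with the highest uterus markers, and Prkag2 was higher in the uterus. The other of the 2, the OC2 ovary, had the highest marker sum, 70.2 FPKM, and its Prkag2 was at 17.8 FPKM. Whether Prkag2 in the OT3 ovary is related to the uterus markers was not tested. The Prkab1 share of the beta class was 59.9% in the OT1 ovary, against 52.2% to 52.8% in the other OT ovaries, and the Prkab2 share, its complement, was 40.1%.

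In the OT1 uterus, which had the highest adipocyte marker sum, 4 AMPK substrates stood far above the other OT uteri. Acaca was at 204 FPKM against at most 35.1 FPKM, Pnpla2 at 469 against at most 116, Lipe at 256 against at most 62.9, and Gpam at 97.0 against at most 52.3 FPKM. Camkk1 was at 2.89 FPKM in the OT3 uterus against at most 2.23 FPKM, and Fnip2 was at 5.48 FPKM in the OT2 ovary, below the 6.31 to 6.42 FPKM of the others.

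For Prkag1 and Sesn2, all 4 OT libraries lay on 1 side of the OC mean in the ovary and on the other side in the uterus, and the difference in response was tested. For Prkag1 the log2 fold change was higher in the uterus by 0.50 (unadjusted p = 0.0221, adjusted p = 0.844, limma). For Sesn2, a stress-induced sestrin, the difference was -0.60 (unadjusted p = 0.0438, adjusted p = 0.844, limma). Sesn2 was at 12.0, 6.61 and 7.13 FPKM in the OC uteri and 5.75, 5.32, 5.85 and 7.29 FPKM in the OT uteri, and OC1 alone was high. Neither difference passed the correction.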

How the results depend on the processing

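In uterus versus ovary, all 96 alternative member values kept their direction, and 5 crossed the threshold, those of Cab39 and Prkab1 given above. The calls of Prkaa1, Prkaa2, Prkab2 and Prkag2 remained in all 12 alternatives. For OT versus OC no member passed in any of them. Genes past the cutoffs of the study went in the ovary from 65 to 18 with a pseudocount of 1, 159 without the filter, 145 without the OC2 and OT3 ovaries (chosen after seeing the data) and 51 to 137 leaving out a mouse, and in the uterus from 410 to 259 with a pseudocount of 1 and 295 to 605 leaving out a mouse. Genes called in the uterus went from 0 to 46 in a fit of all 14 libraries. Leaving out a mouse, called genes were 0 to 1 in the ovary, 0 to 2 in the uterus and 0 to 8 for the difference in response (8 without OT2). The cause was not tested. The isoform shares moved by less than 1 SD in all 42 alternatives, which left out a mouse. A group mean cannot move by 1 SD when a single mouse is left out. These alternatives therefore cannot show whether the shares are stable.

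The mouse as a replicate block changed no member call in uterus versus ovary (Cab39, adjusted p = 0.0376). For OT versus OC the shared numbers belong to different mice (r = -0.016 to 0.338 in the ovary and 0.003 to 0.078 in the uterus), so they share a number. That block gave 103 genes past the cutoffs for ovaries and 666 for uteri, and log2 fold changes of -0.006 for Prkaa2 and -0.024 for Prkab2 in the ovary.

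Small treatment changes turned sign. In the ovary, Stk11 was at 0.004 with median-of-ratios scaling. Without the OC2 and OT3 ovaries Stk11 was at 0.055 and Prkab2 at -0.085, and the difference in response was -0.005 for Prkaa2, 0.036 for Prkab2 and 0.049 for Prkag2. Leaving out a mouse gave, in the ovary, -0.026 to 0.015 for Prkaa1, -0.023 to 0.115 for Prkaa2, -0.049 to 0.046 for Prkab2, -0.014 to 0.190 for Prkag2 and -0.046 to 0.028 for Stk11. In the uterus it gave -0.010 to 0.264 for Prkaa2, -0.229 to 0.037 for Prkab1, -0.179 to 0.067 for Prkab2, -0.043 to 0.219 for Prkag2 and -0.096 to 0.021 for Cab39. For the difference in response it gave -0.130 to 0.041 for Prkab2, -0.194 to 0.183 for Prkag2 and -0.065 to 0.063 for Cab39. No direction is given for these.

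Limits are 3 and 4 mice a group, transcript levels only, unknown depth and whole organs of mixed cell types.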

Other observations

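Markers of brown fat were also read in the uteri. The 5 genes summed to 31.1 to 42.9 FPKM in the OC uteri and 14.4 to 643 FPKM in the OT uteri, the highest being OT1. Ucp1, the uncoupling protein of brown fat, was at 0 in all OC uteri and in 2 of the 4 OT uteri. Its median in the OT uteri was 0.0558 FPKM and its highest value 210 FPKM. Dio2 went the other way, with means of 35.8 FPKM in the OC uteri and 17.0 FPKM in the OT uteri. Its log2 fold change was -1.17 ± 0.33 (unadjusted p = 0.00779, adjusted p = 0.503, limma). The 5 leukocyte markers summed to 24.1 to 34.7 FPKM in the OC ovaries and 35.3 to 59.0 FPKM in the OT ovaries, and these sums did not overlap. Taken singly, Csf1r was free of overlap there, as were 5.91% of all genes, and Ptprc, Cd3e, Cd79a and Adgre1 overlapped. In the uteri the 5 markers summed to 46.3 to 67.6 FPKM (OC) and 57.9 to 126 FPKM (OT), with overlap. The 8 smooth muscle markers summed to 7947 to 9345 FPKM in the OC uteri and 9792 to 14812 FPKM in the OT uteri.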
